A study of Mus musculus with 6 samples.

Results

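The genes described here encode the proteins that fill, dock, prime and fuse synaptic vesicles at the presynaptic active zone. A list of 58 such genes was set by name, and 57 of them were found among the 22180 genes measured, each through a probe set that the platform annotation gives to that gene alone. Doc2a was left out because its probe set is annotated to a further gene as well. For the 3 members with more than 1 such probe set (Bsn, Syp and Syt4), the one with the highest mean level was taken.

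In a nerve terminal, transmitter is loaded into vesicles by transporters such as Slc17a7, and synapsins hold the vesicles in reserve. Scaffolds of the active zone (Bsn, Pclo, the Rims and Erc proteins) place them beside calcium channels, and Unc13 proteins prime them. Fusion is driven by the SNARE complex, which joins Vamp2 on the vesicle to Stx1a and Snap25 on the plasma membrane. Synaptotagmins trigger it on calcium entry, and the ATPase Nsf with its SNAP adaptors (Napa, Napb, Napg) takes the spent complexes apart for reuse. Hippocampal neurons in culture build this machinery while they mature and form synapses.

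The samples were primary hippocampal cells dissected from mouse embryos at day 18 (E18) and kept in Neurobasal medium with B27. At 7 days after seeding they were infected with AAV1/2, an adeno-associated virus, and total RNA was taken 7 days later. In 3 samples this virus delivered a construct that knocks down Diras2, a small GTPase of the Ras family, and in 3 controls a scrambled sequence, so both groups were infected and no other construct was used. Mouse strain, the construct's sequence and its promoter are not given in the sources used here, and neither is whether the biological replicates came from separate litters or cultures, so the p-values reflect only how these samples spread, which may be partly technical. Values are log2 RMA expression levels from 1 Affymetrix array per sample, 6 in all, which bounds the precision. Since RMA brings the arrays to a common distribution, it would hide a shift of most genes together.

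Diras2 was at 10.17, 10.17 and 9.76 in controls 1 to 3 and at 7.17, 6.23 and 6.08 in the knockdown samples, a log2 difference of -3.54 (SE 0.27, adjusted p 0.00063 by limma). Its relative Diras1 was lower as well, at 7.14, 7.31 and 7.42 in the controls and 5.76, 5.99 and 6.08 in the knockdown samples. That difference was -1.35 (SE 0.12, adjusted p 0.00105 by limma), and whether the construct acts on Diras1 was not tested. Of 12 neuronal markers 1 rose (Dcx, 1.69-fold), 0 fell and the median difference was 0.01, with a list mean of 10.13 to 10.29 in the knockdown arrays and 10.01 to 10.32 in the controls. Of 8 markers of inhibitory neurons 1 fell (Lhx6, 2.30-fold), 0 rose and the median was -0.56, with a list mean of 8.04 to 8.71 against 8.40 to 9.42. With the replicate number as a block, 4 of these 8 fell (Lhx6, Npy, Sst and Dlx2, with adjusted p-values by limma of 0.00472 to 0.0442). Of 7 excitatory and 9 astrocyte markers 0 passed by limma (0 and 1 had an unadjusted p under 0.05), their medians were 0.02 and -0.15, and with the block 1 astrocyte marker fell (Gja1, 0.0385). Of 7 oligodendrocyte lineage markers 1 rose (Pdgfra, 6.96-fold, adjusted p 0.0104 by limma), and of 7 fibroblast and mural markers 1 fell (Rgs5, 2.64-fold, 0.00258). Of 8 microglial and 5 endothelial markers 0 passed (2 and 0 had an unadjusted p under 0.05), and their list means lay at 3.97 to 4.54 in all arrays. With the block, the neuronal Nefm, the microglial Csf1r and the fibroblast and mural marker Lum also fell (adjusted p 0.0470, 0.0339 and 0.0442 by limma). Dcx, Pdgfra and Rgs5 kept their calls. Over all genes, 4637 of 22180 had an unadjusted p under 0.05 by limma, 7.80% passed after adjustment, and 11.7% passed with the block. Among genes with a mean level of at least 6, 15.9% passed without the block. In a mixed culture, fewer cells of a type and less RNA per cell cannot be told apart, and the part of these markers in the results below was not tested.

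Of the 57 members, 6 rose and 4 fell, and the other 47 missed the threshold, by limma with Benjamini-Hochberg adjustment over all 22180 genes and a threshold of 0.05. That is 17.5% of the members, where 7.80% of all genes passed (4.17% higher and 3.64% lower). Among genes with a mean level of at least 6, 10 of 49 members (20.4%) passed against 15.9% of all such genes. The median difference of the members was 0.06, with 33 above 0 and 24 below, against a median of 0 for all genes, and their differences ran from -1.46 for Syt17 to 0.83 for Vamp3. The set thus did not move in one direction, and the genes that passed were 5 synaptotagmins, 3 SNARE proteins and the SNAP adaptors Napa and Napb. With the replicate number as a block 7 members rose and 8 fell, 26.3% against 11.7% of all genes. Only 2 members fell when knockdown array 2, knockdown array 3 or control array 2 was dropped, and adding RNA integrity to the fit left 3 that rose and 3 that fell (10.5% against 3.42% of all genes).

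**Figure D1:**
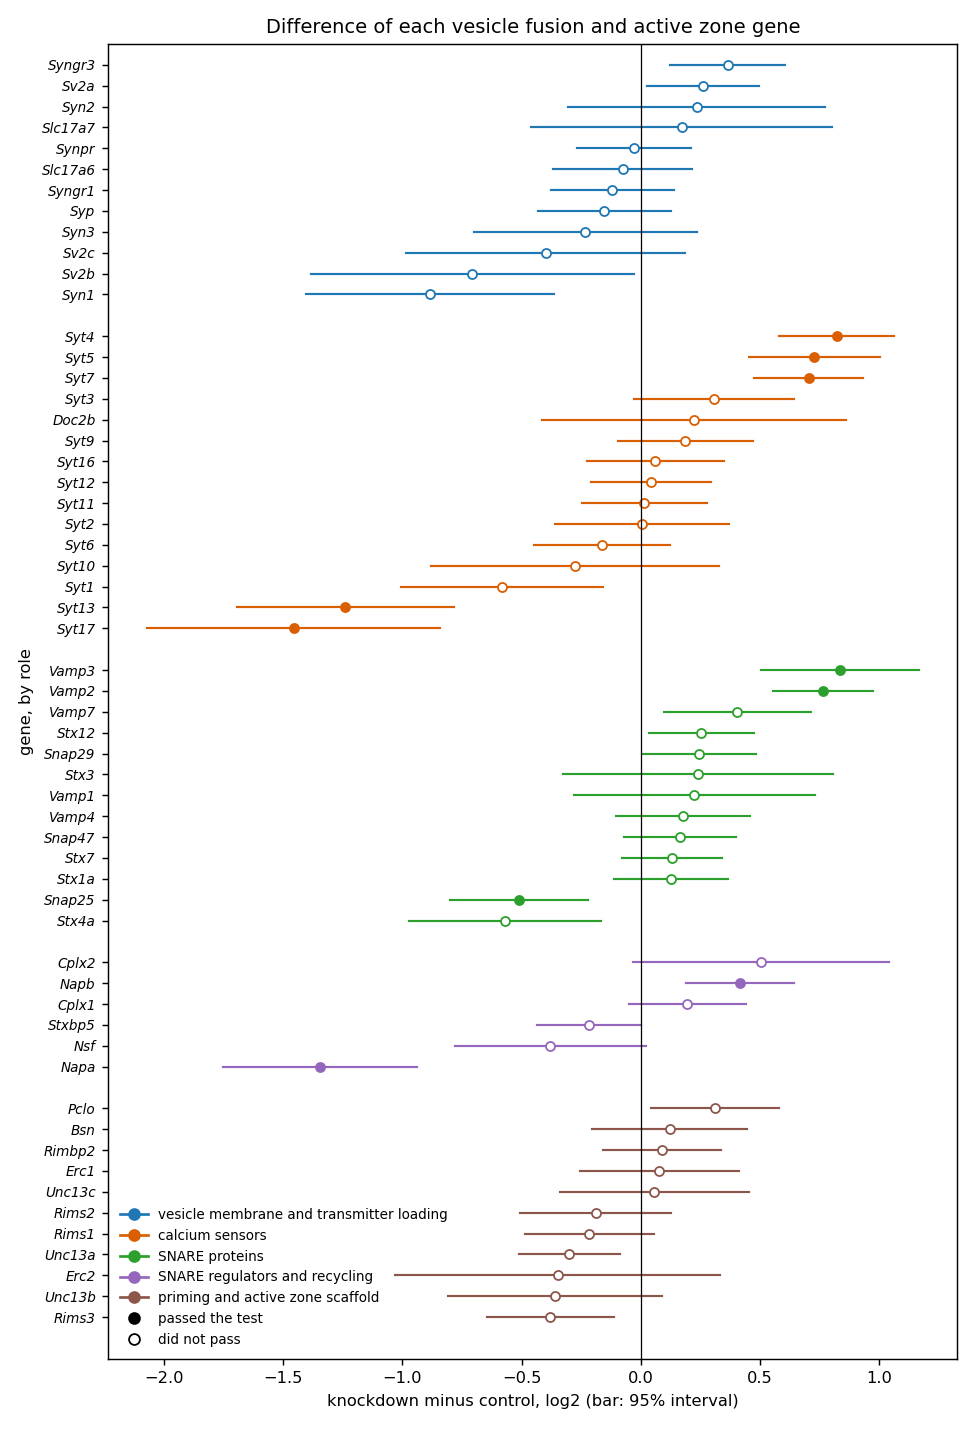
Difference between knockdown and control on the log2 scale for each of the 57 measured genes, ordered within 5 roles, with 95% intervals from the limma fit. Filled points passed the test: 6 lie to the right of 0, in the synaptotagmins, the SNARE proteins and the SNARE recycling factors, and 4 to the left, from Snap25 at -0.51 to Syt17 at -1.46.

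The factors that take SNARE complexes apart split in direction. Napa, which encodes alpha-SNAP, the adaptor that brings Nsf to SNARE complexes throughout the body, fell 2.54-fold, while Napb, its brain-enriched relative beta-SNAP, rose 1.33-fold. Their upstream sequences are shown because the pair moved apart. Of the members that passed, only Napa and Napb had a sequence among the promoters used. Each is the 250 bases before the start of the gene, from RefSeq on GRCm38.p6, with capitals marking every match, on either strand, of the motifs searched. These were the GC box spelled GGGCGG, the CCAAT box by its name, the TATA box spelled TATAAA, the CRE half-site spelled TGACG and the E-box spelled CACGTG, none of which holds another. The Napa sequence lies at chr7:16098330-16098579 on the plus strand and that of Napb at chr2:148732421-148732670 on the minus strand.
Napa: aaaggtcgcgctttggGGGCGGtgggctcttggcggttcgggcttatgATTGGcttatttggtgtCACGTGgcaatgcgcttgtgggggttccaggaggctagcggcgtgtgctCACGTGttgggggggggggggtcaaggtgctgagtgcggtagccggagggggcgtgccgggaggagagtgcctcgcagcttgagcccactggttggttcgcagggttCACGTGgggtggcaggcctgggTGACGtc
Napb: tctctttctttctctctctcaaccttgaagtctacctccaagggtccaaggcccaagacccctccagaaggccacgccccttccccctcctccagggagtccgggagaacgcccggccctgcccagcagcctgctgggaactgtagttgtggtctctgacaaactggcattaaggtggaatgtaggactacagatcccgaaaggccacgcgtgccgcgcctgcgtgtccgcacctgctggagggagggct
The Napa sequence held 3 E-boxes, 1 GC box, 1 CCAAT box and 1 CRE half-site, and that of Napb held 0 matches to the motifs searched. The G+C share was 65.6% for Napa and 61.2% for Napb, against a median of 62% over the members' promoters and 52.4% over all promoters in the table. An E-box was in 6.02% of all 32851 promoters of this length, a GC box in 32.7%, a CCAAT box in 33.8%, a CRE half-site in 17.8% and a TATA box in 12.4%. Of the members, 43 were in the table with 55 start sites, of which 61.8% held a GC box, 12.7% an E-box, 25.5% a CCAAT box, 18.2% a CRE half-site and 5.45% a TATA box. Syt4, Syt5, Syt7, Syt13, Syt17, Snap25, Vamp2 and Vamp3, which passed, were missing, so these shares describe mostly members that did not pass. These matches describe the letters and were not related to the differences by any test.

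Napa stood at 8.54, 8.45 and 8.58 in controls 1 to 3 and at 7.58, 7.11 and 6.84 in the knockdown samples. All 3 knockdown values lay below all controls, and they were more widely spread (SD 0.37 against 0.07, n = 3 each). The difference was -1.35 on the log2 scale (SE 0.18, 95% interval -1.75 to -0.94, adjusted p 0.00386 by limma), and it passed without each array in turn. Napb was at 10.90, 10.85 and 10.94 in the controls and at 11.30, 11.42 and 11.22 in the knockdown samples, with a difference of 0.42 (SE 0.10, 95% interval 0.19 to 0.64, adjusted p 0.0408 by limma). Its groups did not overlap either, but the call was lost without each array in turn (0.0736 to 0.152), with quantile normalisation (0.0527), with RNA integrity as a covariate (0.144) and when all probe sets were tested (0.0922). The log2 ratio of Napb to Napa within an array was higher in the knockdown by 1.76, given as a description since the pair was singled out for its opposite directions. Napg, gamma-SNAP, the remaining relative and not a member, rose from 9.03 ± 0.26 to 9.87 ± 0.17 (SD, n = 3), 1.79-fold (adjusted p 0.0154 by limma, and 0.0735 and 0.0759 without knockdown or control replicate 2). Nsf, the ATPase itself, was at 11.88, 11.56 and 11.25 in the controls and at 11.38, 11.18 and 10.99 in the knockdown samples. These overlap, and the difference of -0.38 (95% interval -0.78 to 0.02) had an adjusted p of 0.264.

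Of the other genes that act on SNARE complexes, the complexins, which clamp and promote fusion, had differences of 0.19 (Cplx1, 95% interval -0.05 to 0.44) and 0.50 (Cplx2, -0.03 to 1.04) and did not pass. Cplx2 was highest in replicate 1 of both groups, at 10.37, 10.05 and 9.56 in the controls and at 10.88, 10.38 and 10.23 in the knockdown samples. Each knockdown value was above the control of the same number, and with the replicate block Cplx2 passed (adjusted p 0.0287 by limma). Stxbp5, or tomosyn, an inhibitor of SNARE assembly, had a difference of -0.22 with an adjusted p of 0.242.

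Among 15 measured synaptotagmins and Doc2 proteins, 3 rose (Syt4, Syt5 and Syt7), 2 fell (Syt13 and Syt17) and 10 did not pass, with a median difference of 0.04. The share that passed was 33.3%, against 7.80% of all genes and 15.9% of genes with a mean level of at least 6. The group is named for calcium sensing, which does not describe all of its members that moved. Syt7 is a slow, high-affinity calcium sensor of asynchronous release, whereas Syt4 does not drive fast release and is found on dense-core vesicles. Syt13 is an atypical member that lacks the usual calcium-binding residues, and Syt17 is likewise divergent.

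Syt4 was at 10.01, 10.09 and 9.86 in controls 1 to 3 and at 10.83, 10.87 and 10.72 in the knockdown samples. The groups were far apart compared with their spread, and the difference was 0.82 (SE 0.10, adjusted p 0.00347 by limma), or 1.77-fold. The further probe sets of this gene had differences of 0.72 and 0.68, with adjusted p-values over all probe sets of 0.0227 and 0.0581. Syt7 stood at 7.41, 7.40 and 7.46 in the controls and at 8.23, 8.01 and 8.14 in the knockdown samples, a rise of 1.63-fold (0.70, SE 0.10, adjusted p 0.00504 by limma). Syt5, a vesicle-bound calcium-binding synaptotagmin, was at 10.45, 10.57 and 10.53 in the controls and at 11.03, 11.40 and 11.30 in the knockdown samples, 1.65-fold higher (0.73, SE 0.12, adjusted p 0.00981 by limma). The groups did not overlap for any of the 3. Syt4 and Syt7 passed under each of the 17 alternatives, and Syt5 under all but RNA integrity as a covariate (0.0550).

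Syt17 had the largest difference of all members. It was at 9.15, 8.90 and 8.27 in controls 1 to 3 and at 7.77, 7.26 and 6.92 in the knockdown samples, 2.74-fold lower (-1.46, SE 0.27, adjusted p 0.0154 by limma). Replicate 1 was the highest and replicate 3 the lowest in both groups, and the SDs were 0.45 in the controls and 0.43 in the knockdown samples (n = 3 each). Dropping knockdown array 2 (0.0712), knockdown array 3 (0.0595) or control array 2 (0.0748) ended the call. Syt13 was at 8.77, 8.75 and 8.53 in the controls and at 7.91, 7.31 and 7.11 in the knockdown samples, 2.36-fold lower (-1.24, SE 0.20, adjusted p 0.00859 by limma), and passed under each alternative. Syt14, a further divergent synaptotagmin that is no member of the set, fell from 7.80 ± 0.13 to 7.05 ± 0.28 (SD, n = 3; adjusted p 0.0225 by limma); its call was lost without each array but knockdown replicate 1 (0.0560 to 0.0895).

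Syt1, the sensor of fast synchronous release in forebrain neurons, was at 12.01, 11.81 and 11.54 in controls 1 to 3 and at 11.46, 11.31 and 10.84 in the knockdown samples. Every knockdown value was below that of the same-numbered control, and the groups just failed to overlap. Its difference of -0.58 (SE 0.18, 95% interval -1.01 to -0.16) did not pass (adjusted p 0.107), but did with the replicate block (0.0130) and with array weights (0.0424). Syt2, its closest relative, was dim at 4.93 ± 0.08 in the controls and 4.93 ± 0.32 in the knockdown samples (SD, n = 3), and Syt11, the closest relative of Syt4, had a difference of 0.01 (95% interval -0.25 to 0.28). The other 7 members, Syt3, Syt6, Syt9, Syt10, Syt12, Syt16 and Doc2b, had differences from -0.28 to 0.31.

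**Figure D2:**
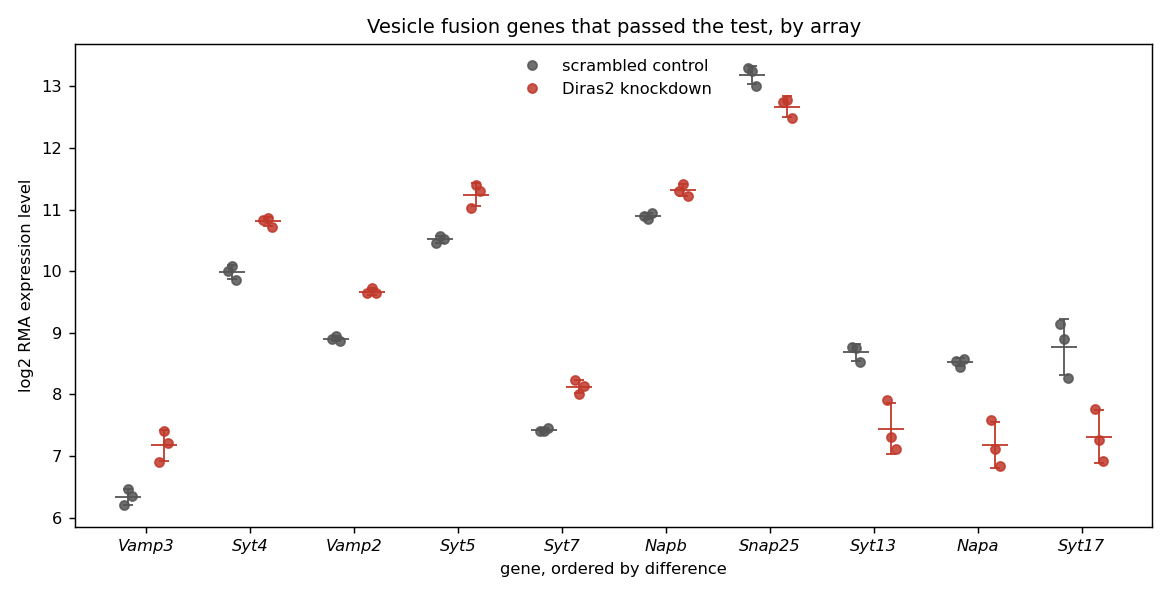
Log2 expression level of the 10 members that passed the test, with 1 point per array, a horizontal bar at the group mean and error bars of 1 SD (n = 3). For each gene the 3 knockdown points lie on one side of the 3 control points. The Vamp2, Syt4 and Syt7 points are tight. The knockdown points of Syt13 and Napa are spread more widely than their controls, and the Syt17 points are widely spread in both groups.

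Of 13 SNARE proteins measured, 2 rose (Vamp2 and Vamp3), 1 fell (Snap25) and 10 did not pass. That is 23.1%, against 7.80% of all genes and 15.9% of genes with a mean level of at least 6. Of the 13, 11 lay above 0 and the median difference was 0.22. The groups did not overlap for 9 of the 13, where this held for 25.5% of all genes and 41.3% of genes with a mean level of at least 6.

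Vamp2, or synaptobrevin, the main SNARE of synaptic vesicles, was at 8.90, 8.95 and 8.87 in controls 1 to 3 and at 9.64, 9.73 and 9.64 in the knockdown samples. Both groups were tight, with SDs of 0.04 and 0.05, and the rise of 0.76 (SE 0.09, adjusted p 0.00291 by limma), or 1.70-fold, passed under each alternative. Vamp3, cellubrevin, which serves endosomal recycling in most cells, was at 6.21, 6.46 and 6.35 in the controls and at 6.90, 7.40 and 7.22 in the knockdown samples, 1.78-fold higher (0.83, SE 0.14, adjusted p 0.0122 by limma). Its call was lost without knockdown replicate 2 (0.0507) or 3 (0.0540) and with RNA integrity as a covariate (0.0637). Vamp1, the other synaptobrevin of neurons, had a difference of 0.22 with a wide interval (-0.28 to 0.73). Vamp7, a SNARE of late endosomes and neurite outgrowth, had 0.40 (95% interval 0.10 to 0.71) with non-overlapping groups and an adjusted p of 0.124, and Vamp4, of the trans-Golgi, had 0.18 with overlapping groups.

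Snap25, the plasma membrane SNARE of neurons, was at 13.29, 13.24 and 13.01 in controls 1 to 3 and at 12.75, 12.78 and 12.48 in the knockdown samples. The groups did not overlap, and the difference of -0.51 (SE 0.13, adjusted p 0.0471 by limma), or 1.42-fold, lay just inside the threshold. The call was lost without each array but control replicate 3 (0.0811 to 0.168), with median centring (0.0700), quantile normalisation (0.0592), RNA integrity as a covariate (0.0966) and all probe sets (0.107), and was kept with the replicate block (0.0171). Its relatives Snap29 and Snap47, which act more widely in membrane traffic, had differences of 0.24 and 0.16 and did not pass. Stx1a, the syntaxin of neuronal exocytosis, had a difference of 0.13 (95% interval -0.11 to 0.37). Of the other syntaxins, Stx4a, of the plasma membrane, had -0.57 (adjusted p 0.0975) with groups that did not overlap, and the endosomal Stx12 and Stx7 had 0.25 and 0.13, also without overlap, and did not pass. Stx3 was dim at 5.48 ± 0.54 in the controls and 5.72 ± 0.19 in the knockdown samples (SD, n = 3) and its interval ran from -0.33 to 0.81.

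Of 12 genes of the vesicle membrane and of transmitter loading, 0 passed the test by limma, while 4 had an unadjusted p under 0.05. Such a p was found for 4637 of all 22180 genes and 3218 of the 9016 with a mean level of at least 6. With the replicate block 2 fell, and with array weights 1 rose and 1 fell, where 11.7% and 12.2% of all genes passed. The median difference was -0.10. Of the 3 synapsins, Syn1 had a difference of -0.89, Syn3 of -0.23 and Syn2 of 0.23.

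Syn1, which tethers vesicles to actin, was at 10.83, 10.72 and 10.50 in controls 1 to 3 and at 10.35, 9.60 and 9.44 in the knockdown samples. The groups did not overlap, and knockdown replicate 1 lay closest to the controls. The adjusted p by limma was 0.0530, just outside the threshold, and was 0.0125 with the replicate block, 0.0144 with array weights and 0.00576 without knockdown replicate 1. Sv2b, of the SV2 family of vesicle transport-like proteins, was at 11.48, 10.96 and 10.30 in the controls and at 10.62, 10.07 and 9.93 in the knockdown samples. These overlap, yet each knockdown value was below its same-numbered control, and the difference of -0.71 passed with the replicate block (adjusted p 0.0184) and not without it (0.219). Sv2a had 0.26 (95% interval 0.02 to 0.50) and Sv2c -0.40 (-0.99 to 0.19). Syngr3, a synaptogyrin, had 0.36 with non-overlapping groups, an adjusted p of 0.0817 and one of 0.0293 with array weights.

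The transporters that load glutamate, Slc17a7 and Slc17a6 (VGLUT1 and VGLUT2), had differences of 0.17 (95% interval -0.46 to 0.80) and -0.08 (-0.37 to 0.21). Syp, synaptophysin, a common marker of synaptic vesicles, was at 11.63, 11.39 and 11.37 in controls 1 to 3 and at 11.46, 11.31 and 11.16 in the knockdown samples, with overlapping groups and an interval of -0.43 to 0.13. Synpr and Syngr1 had differences of -0.03 and -0.12.

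Of 11 priming and scaffold genes of the active zone, 0 passed by limma, 5 lay above 0 and the median difference was -0.19. An unadjusted p under 0.05 was found for 3, against 4637 of all 22180 genes and 3218 of the 9016 at a level of at least 6. With the replicate block 1 fell, where 11.7% of all genes passed. The scaffolds Bsn and Pclo, giant proteins that organise the active zone, had 0.12 and 0.31, and Pclo was at 8.19, 8.42 and 8.26 in the controls and at 8.57, 8.47 and 8.76 in the knockdown samples, which did not overlap. Unc13a, the main priming factor of excitatory synapses, was at 9.65, 9.66 and 9.64 in controls 1 to 3 and at 9.37, 9.40 and 9.28 in the knockdown samples. The difference was small, -0.30 (SE 0.09, 95% interval -0.51 to -0.09), but larger than the spread within either group; its adjusted p was 0.0957 over all genes and 0.0415 and 0.0311 when only genes with a mean level of at least 5 or 6 were tested. Rims3, a short Rim protein, was dim, at 6.26, 5.97 and 6.16 in the controls and at 5.88, 5.66 and 5.71 in the knockdown samples. The groups did not overlap, and the difference of -0.38 had an adjusted p of 0.0963 without the replicate block and 0.0473 with it.

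Rims1 and Rims2, the full-length Rim scaffolds that tether calcium channels, had differences of -0.22 and -0.19, and Rimbp2, which links them to those channels, 0.09. Erc1 and Erc2 had 0.08 and -0.35, the latter with a wide interval (-1.03 to 0.33). Unc13b, a priming factor of a subset of synapses, had -0.36, and Unc13c, a cerebellar relative, was at 3.91 ± 0.19 in the controls and 3.96 ± 0.31 in the knockdown samples (SD, n = 3). Of all 57 members, 8 had a mean level under 6: Syngr1, Sv2c, Syt2, Syt6, Syt12, Stx3, Rims3 and Unc13c. A low level can hide part of a change, and whether these lay above background was not tested.

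Part of the spread within groups followed the replicate number. In 24 of the 57 members (42.1%) replicate 3 was the lowest array of both the knockdown and the control group, where this held for 15.8% of all genes and 24.1% of genes with a mean level of at least 6. Replicate 1 was the highest of both groups in 21 members (36.8%, against 17.4% and 27.9%), among them Syn1, Syn2, Sv2b, Slc17a7, Syt1, Syt17, Cplx2, Nsf and Erc2. The reverse, a lowest value in replicate 1 of both groups, held for 8 members (14%, against 16% of all genes and 16.9% of those at a level of at least 6): Syn3, Syt5, Syt6, Syt10, Stx3, Vamp3, Rims2 and Unc13b. The same arrays differed in neuronal markers: the mean of the excitatory list was 7.92 and 7.93 in replicate 1 and 7.30 to 7.60 in the others, and that of the inhibitory list 8.04 and 8.40 in replicate 1 and 8.56 to 9.42 in the others. Their part in the members' spread was not tested.

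**Figure D3:**
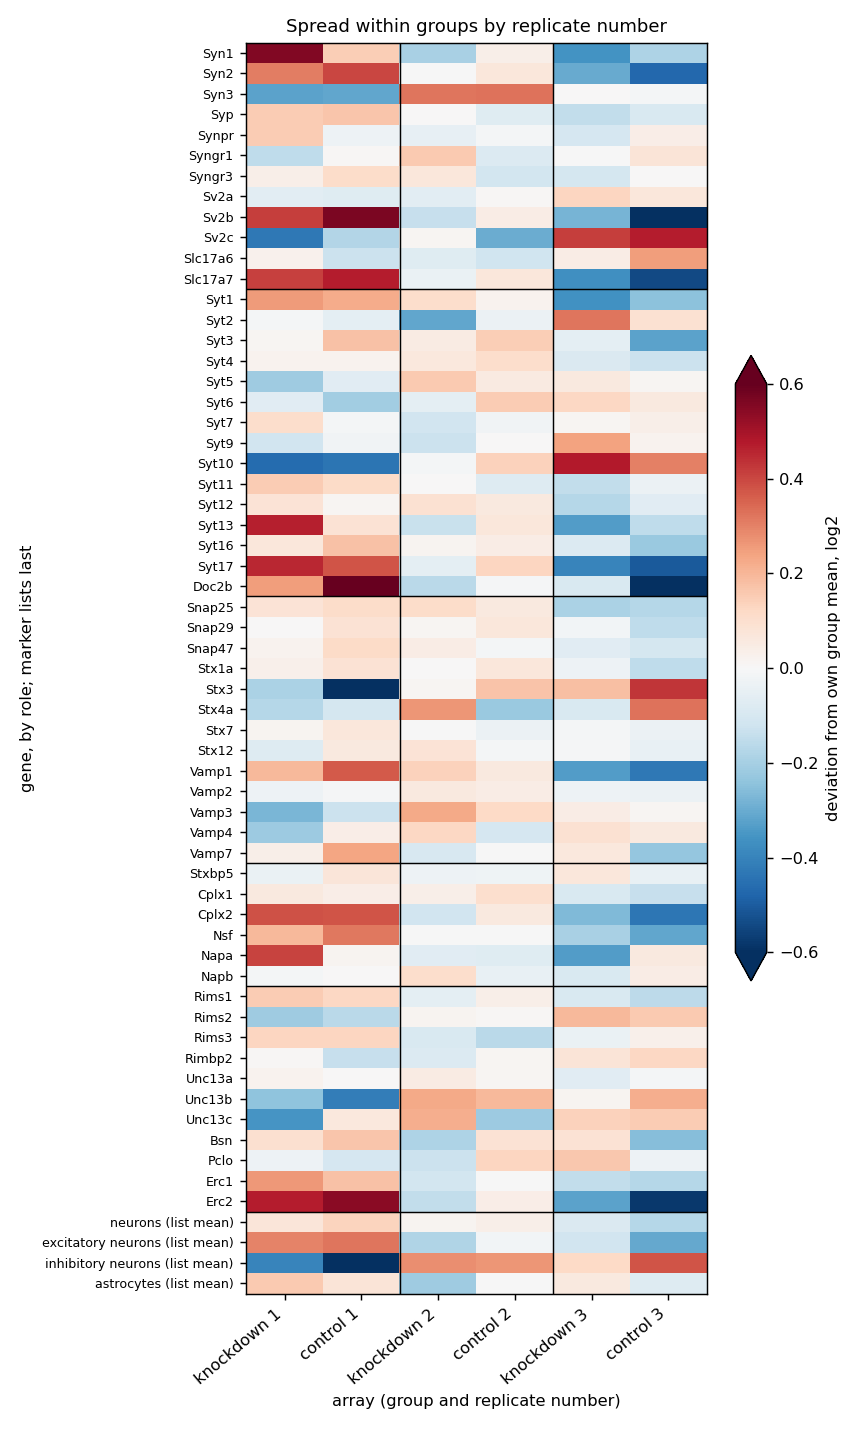
Deviation of each member in each array from the mean of its own group, on the log2 scale (colour), with arrays of the same replicate number side by side, genes in 5 blocks by role and the means of 4 marker lists in the bottom rows. Erc2, Sv2b, Slc17a7, Cplx2 and Syt17 are red in both arrays of replicate 1 and blue in both of replicate 3, Syt10 runs the other way, and the inhibitory list is blue in both arrays of replicate 1.

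Compared within the same replicate number, 43 of the 57 members (75.4%) differed in the same direction in all 3 pairs, against 44.9% of all genes. Among genes with a mean level of at least 6 this was 40 of 49 members (81.6%) against 65.4%. The blocked fit called the 10 members that passed without it and 5 more, Syn1, Sv2b, Syt1, Cplx2 and Rims3, of which Cplx2 rose and the others fell.

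Other genes of the same pathways were read beside the members. They were listed by function, but with earlier results of these data known. Of 31 further SNARE and fusion genes 1 rose, 2 fell and 28 did not pass, with a median difference of 0. Of 41 further vesicle and active zone genes 3 rose, 1 fell and 37 did not pass (median 0.00). The shares that passed were 9.68% and 9.76%, against 7.80% of all genes and 15.9% of genes with a mean level of at least 6. The median levels of these lists were 6.97 and 8.26, against 5.06 for all genes. Of 34 genes that retrieve vesicle membrane by endocytosis 4 rose, 3 fell and 27 did not pass (median 0.11), a share of 20.6%. This list is bright, with a median level of 9.10, and 15.9% of genes with a mean level of at least 6 passed. Together 8 rose and 6 fell, and with the replicate block, where 11.7% of all genes passed, 9 rose and 10 fell.

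Rab3d, of the Rab3 GTPases that bring vesicles to the membrane, was at 6.37, 6.32 and 6.32 in controls 1 to 3 and at 7.56, 7.62 and 7.37 in the knockdown samples, 2.27-fold higher (1.18, SE 0.10, adjusted p 0.00093 by limma). Rab3c rose 1.39-fold, while Rab3a and Rab3b had differences of 0.11 and -0.14 and did not pass. Svop, a vesicle protein related to the SV2 family, rose 1.79-fold. Lin7c, a PDZ adaptor that works with Cask and Apba1, was at 10.48, 10.21 and 9.97 in the controls and at 9.31, 8.93 and 8.96 in the knockdown samples, 2.22-fold lower (adjusted p 0.00477 by limma). Its relatives did not pass: Lin7a had 0.17, and Lin7b 0.70, whose adjusted p was 0.109 without the replicate block and 0.0275 with it. Snph, syntaphilin, which anchors axonal mitochondria and was first described as a syntaxin binder, fell 1.47-fold.

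Among the endocytosis genes, Amph, amphiphysin, which senses curved membrane and recruits dynamin, was at 10.67, 10.51 and 10.19 in controls 1 to 3 and at 9.66, 9.05 and 8.96 in the knockdown samples, 2.35-fold lower (adjusted p 0.00981 by limma). Cltc, the clathrin heavy chain, fell 1.35-fold and Synj2, a phosphoinositide phosphatase, 1.63-fold (adjusted p 0.0496 and 0.0469 by limma). Its synaptic relative Synj1 rose 1.36-fold, and so did Sh3gl3, an endophilin (1.95-fold), Itsn2, a scaffold of clathrin pits (1.60-fold), and Pacsin1, a neuronal membrane-bending protein (1.44-fold). Dnm1, neuronal dynamin, had a difference of -0.05. Of these 14 genes, Rab3d, Svop and Lin7c passed without each array in turn; the other 11 lost their calls without knockdown replicate 2 (0.0535 to 0.167) and 10 of them without control replicate 2 (0.0539 to 0.133), while without knockdown replicate 1 or 3 each 7 were lost and without control replicate 1 or 3 each 5. Adding RNA integrity to the fit ended 10 of the 14 calls (0.0718 to 0.198), and averaging the probe sets of Rab3c ended its call (0.148). The weakest calls were those of Cltc, which passed under 7 of the 17 alternatives, and of Synj2 and Rab3c, which passed under 8 each.

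**Figure D4:**
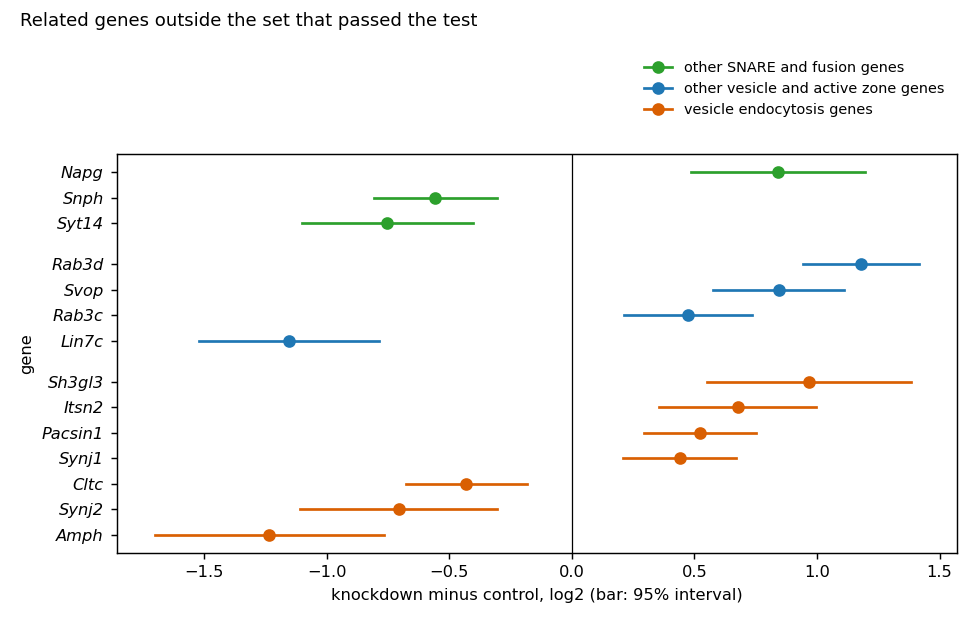
Difference between knockdown and control on the log2 scale, with 95% intervals, for the 14 related genes outside the set that passed the test, by list. In each of the 3 lists genes lie on both sides of 0, from Amph at -1.23 to Rab3d at 1.18.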

How the data were processed

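The authors summarised each probe set to a log2 level. The submitters' processing notes name RMA and the software Affymetrix Expression Console, version 1.2.1.20. These deposited log2 values were taken as they stand; raw probe data and detection calls were not used here. Of 41345 probe sets, 23521 have 1 gene symbol in the platform annotation, 1814 several and 16010 none listed. The brightest probe set of each gene gave 22180 genes. The treatment label gave each array its group. Array medians were 4.03 to 4.11, and the labelled RNA integrity was 8.8 to 9.3.

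Knockdown minus control was fitted with limma 3.58.1 (lmFit, eBayes without trend, R 4.3.3) over all genes, with Benjamini-Hochberg adjustment and a threshold of 0.05, after the procedure was tested on simulated data. Folds were computed from log2 differences, and 95% intervals use the moderated standard error. Members, roles and lists were chosen with earlier results of these data known, so no p is given for a list. Every member was accounted for; those that passed are given with all values, as are members that passed with the replicate block, and related genes were named where they passed. Relatives of genes that passed, and other related genes that did not, are named as comparisons, some after their values were seen.

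Labels give both groups replicate numbers 1 to 3. To check whether they pair samples, each array's deviation from its group's mean was correlated over genes with that of the arrays in the other group. Same-numbered arrays gave 0.427, 0.121 and 0.374, and the other pairs -0.378 to 0.0568. All 3 exceeded those of the other pairs, though 0.121 lay close to 0.0568. The labels do not say that same-numbered samples are pairs, and the main fit does not pair them. A fit with the replicate number as a block is given beside it, and values are from the unblocked fit unless stated. Promoters came from RefSeq, GRCm38.p6, and 43 members matched by symbol. Figures were drawn with matplotlib 3.10.9.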

Additional observations from a re-analysis of the deposited data

How the results depend on the processing

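The 17 alternatives dropped each array in turn, blocked on the replicate number, centred arrays on their medians, quantile-normalised them, tested only genes with a mean level of at least 5 or 6, used an intensity trend or robust eBayes, weighted arrays, added RNA integrity as a covariate, averaged the probe sets of a gene, or tested all probe sets. None of the 10 members that passed, nor Diras2, changed direction under any of them. Syt4, Syt7, Syt13, Vamp2 and Napa passed under each; Syt5 under 16, Syt17 and Vamp3 under 14, and Snap25 and Napb under 8. Members that did not pass changed sign, without passing, in 29 combinations of member and alternative, and passed in 18. Leaving out 1 array gave 2 to 4 members that fell, 383 to 800 genes that rose and 306 to 687 that fell over all genes, and 2 to 7 related genes that rose and 1 to 5 that fell. With RNA integrity as a covariate, 3 members rose, 402 genes rose and 356 fell over all genes, and 2 related genes rose and 2 fell. With the replicate block 8 members fell, 1252 genes fell over all genes and 10 related genes fell. Array weights gave 1401 genes that rose and 1302 that fell, and 11 related genes that fell. Adjustment over all probe sets gave 506 and 423 genes, and 5 and 2 related genes. Testing only genes with a mean level of at least 5 or 6 gave 10 or 12 related genes that fell. Some of these fits hold fewer samples, or a smaller or larger number of genes, and the cause of the shifts was not tested.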
